A study of Oryza sativa with 4 samples.

Results

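The gene models described here are a run of 131 consecutive identifiers, BGIOSGA010224 to BGIOSGA010354, in a rice RNA sequencing study of chilling. BGIOSGA is the prefix of the indica rice gene models in Ensembl Plants. All 131 identifiers were listed in the deposited table, and the 71 with an FPKM of at least 1 in any of the 4 libraries are the members; FPKM is a fragment count divided by gene length in kilobases and by library size. They are 71 of the 24192 BGIOSGA identifiers that reached this level. Of the other 60 identifiers in the range, 37 were at 0 in all 4 libraries and 23 were above 0 but below the threshold. The run was chosen by measured values, the FPKM ratios between the 2 lines at 0 h and 36 h, because line differences gather in it. Its line differences are therefore given as a description of what chose it.

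Whole plants at the 3-leaf stage were sampled from 2 lines. DC90 is a chromosome substitution line with tolerance to chilling, and 9311, also named YD6, is its chilling-sensitive recurrent parent. The groups were DC90 before chilling (0 h), DC90 at 36 h of chilling, 9311 before chilling and 9311 at 36 h of chilling, each represented by 1 library of RNA mixed from 3 replicates. There was no replicate check within a group, so "higher" and "lower" below describe these libraries and no p-value is given. The library totals, recovered from the step sizes of the FPKM values, were 10580163 to 11800685 reads. The donor of the substituted segments, the temperature and the genome build are not stated in the labels used here, and no plants unchilled at 36 h were analysed here, so chilling cannot be told apart from age or time of day.

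A substitution line is made by crossing a donor to a recurrent parent and backcrossing, so that most of its genome comes from the recurrent parent and limited segments come from the donor. Genes inside a donor segment carry the donor's alleles, whereas genes elsewhere share their alleles with the recurrent parent. Substitution lines are used in rice to place traits such as seedling chilling tolerance on segments. Whether the block lies in a donor segment was not tested. The identifiers carry no gene symbols in the table, 0 of the members were found in the reference gene table, and their functions are therefore not described. For the same reason the labelled tissue could not be checked against marker genes.

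Of the 71 members, 12 were at least 2-fold different between the lines, and in the same direction, at both times, 5 of them higher and 7 lower in DC90. A member counted if the log2 of the ratio of its FPKM values, each with 1 added, reached 1 in size and one of the compared libraries had an FPKM of at least 1. Among the 24121 BGIOSGA identifiers outside the block, 0.900% passed it at both times, 0.381% as higher and 0.518% as lower. At 0 h, 6 members were higher and 10 lower in DC90 among 70 measured, which is 22.9%, against 3.40% of identifiers outside the block (1.57% higher and 1.83% lower). At 36 h, 8 were higher and 9 lower among 64 measured, which is 26.6%, against 5.38% (1.79% higher and 3.58% lower). These line differences chose the block, and nothing further is read from their excess. In bulk RNA of whole plants, fewer cells of a type and less RNA per cell cannot be told apart.

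**Figure D1:**
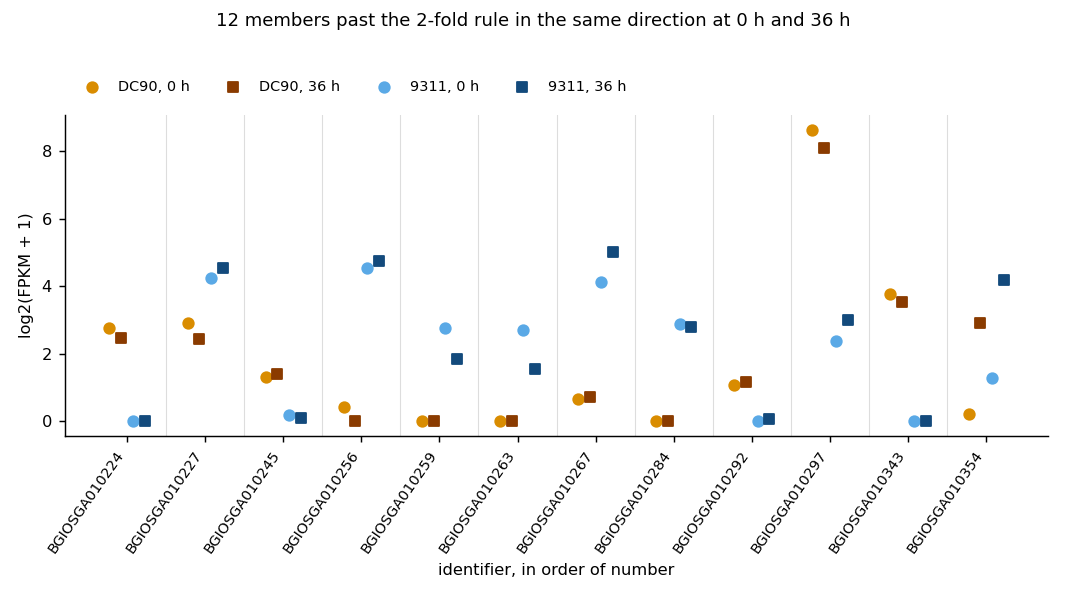
Levels of the 12 members that passed the 2-fold line rule at 0 h and at 36 h with the same sign, as log2(FPKM + 1) on the vertical axis, by identifier in order of number; each point is 1 pooled library, orange and brown for DC90 and light and dark blue for 9311. BGIOSGA010297 spans the widest range, from an FPKM of 4.20 to 397, and for BGIOSGA010354 the DC90 library at 36 h lies above the 9311 library at 0 h.

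The member with the widest line difference was BGIOSGA010297, a model with a recovered coding length of 363 bases. It stood at an FPKM of 397 in DC90 at 0 h, 275 in DC90 at 36 h, 4.20 in 9311 at 0 h and 7.08 in 9311 at 36 h. Both DC90 libraries were far above both 9311 libraries. The ratio of DC90 to 9311 was 94.5 at 0 h, with an exact Clopper-Pearson 95% counting interval of 59.6 to 159.9, and 38.9 at 36 h, with an interval of 26.7 to 58.8. These rest on 1688 and 18 reads at 0 h and on 1056 and 28 reads at 36 h; here and below, counting intervals cover counting error only. BGIOSGA010297 was also the third most abundant member by its mean over the libraries, and the only one of the 5 most abundant that passed the line rule at both times.

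Among the other members higher in DC90, 2 were listed at 0 in both 9311 libraries. BGIOSGA010343 had an FPKM of 12.7 at 0 h and 10.6 at 36 h in DC90, from 37 and 28 reads, and 0 in 9311 at both times. With 9311 set at 3 reads per library, it was at least 12.4-fold higher in DC90 at 0 h and at least 9.62-fold higher at 36 h. Such bounds take the DC90 reads as exact, and the 95% counting intervals of these ratios began at 9.61 and 7.32. BGIOSGA010224, the first identifier of the block, had 5.87 and 4.55 in DC90, from 20 and 14 reads, and 0 in both 9311 libraries. Set against 3 reads it was at least 6.72-fold higher in DC90 at 0 h and at least 4.81-fold higher at 36 h, with intervals that began at 4.98 and 3.42. Neither had a single read in the recurrent parent, in which a count of 0 allows up to 3 reads.

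The last 2 members higher in DC90 at both times were low in every library. BGIOSGA010245 stood at FPKM values of 1.51 and 1.67 in DC90 at 0 h and 36 h and at 0.136 and 0.0735 in 9311. Its ratio of DC90 to 9311 was 11.1 at 0 h (interval 2.73 to 97.3) and 22.7 at 36 h (interval 3.66 to 935), with 22 reads in each DC90 library against 2 and 1 in 9311. BGIOSGA010292 stood at 1.13 and 1.25 in DC90, at 0 in 9311 at 0 h and at 0.0607, a single read, in 9311 at 36 h. Set against 3 reads it was at least 6.72-fold higher in DC90 at 0 h, with an interval that began at 4.98, and its ratio at 36 h was 20.6 with an interval of 3.30 to 854. In both, the lines did not overlap, but the 9311 side rested on 2 reads or fewer.

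Of the 7 members lower in DC90 at both times, BGIOSGA010256 and BGIOSGA010267 had at most 2 reads in a DC90 library and were above 10 FPKM in 9311. BGIOSGA010256 had an FPKM of 0.343, from 1 read, in DC90 at 0 h and 0 at 36 h, against 22.5 and 26.2 in 9311. Its ratio of 9311 to DC90 was 65.5 at 0 h (interval 11.4 to 2625), and at 36 h, with DC90 set at 3 reads, it was at least 23.0-fold lower in DC90, with an interval that began at 18.2. BGIOSGA010267 had 0.599 and 0.663 in DC90, from 2 reads each, against 16.7 and 31.2 in 9311, from 56 and 97 reads. Its ratio of 9311 to DC90 was 27.8 at 0 h (interval 7.34 to 235) and 47.1 at 36 h (interval 12.7 to 394). In 9311 the ratio of 36 h to 0 h was 1.88 for BGIOSGA010267 (interval 1.34 to 2.65). For BGIOSGA010256 it was 1.16, with an interval of 0.821 to 1.65 that includes equality.

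Another 3 were listed at 0 in both DC90 libraries. BGIOSGA010284 had 6.32 in 9311 at 0 h and 5.99 at 36 h, and set against 3 reads was at least 10.6-fold lower in DC90 at 0 h and at least 9.06-fold lower at 36 h (intervals from 8.12 and 6.89). BGIOSGA010263 had 5.53 and 1.92 in 9311, and on the same bound was at least 9.26-fold and 2.91-fold lower in DC90 (intervals from 7.05 and 1.92). BGIOSGA010259 had 5.86 and 2.61 in 9311, and on the same bound was at least 5.62-fold and 2.26-fold lower (intervals from 4.09 and 1.40), so that at 36 h counting error alone allows less than 2-fold. In 9311 the last 2 had fewer reads at 36 h, from 28 to 9 and from 17 to 7, and therefore smaller bounds. The interval of the ratio of 36 h to 0 h in 9311 was 0.144 to 0.758 for BGIOSGA010263. For BGIOSGA010259 it was 0.156 to 1.13, which includes equality. BGIOSGA010260 was also at 0 in both DC90 libraries but passed the line rule at 0 h alone, with 4.57 in 9311 at 0 h and 0.112, a single read, at 36 h.

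The remaining 2 members lower in DC90 at both times had reads in both lines. BGIOSGA010227 stood at 6.55 and 4.41 in DC90 and at 18.1 and 22.3 in 9311. The ratio of 9311 to DC90 was 2.76 at 0 h (interval 1.69 to 4.66) and 5.06 at 36 h (interval 2.83 to 9.71). BGIOSGA010354, the last identifier of the block, went from 0.161 to 6.60 in DC90 and from 1.44 to 17.3 in 9311. It was lower in DC90 at either time, with a ratio of 9311 to DC90 of 8.93 at 0 h (interval 1.24 to 391, on 1 read in DC90) and 2.62 at 36 h (interval 1.78 to 3.94), and higher after chilling in both lines.

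In all, 7 of the 71 members were listed at 0 in both libraries of a line, 4 in DC90 and 3 in 9311, which is 9.86%, against 0.701% of the identifiers outside the block. The seventh was BGIOSGA010233, with 2.36 in DC90 at 0 h, from 14 reads, and 0 in the other 3 libraries. Members without reads occurred on the side of either line. Members under 1 FPKM in both libraries of a line and at 5 or more in both of the other numbered 3 on the DC90 side and 1 on the 9311 side, together 5.63%, against 0.211% outside the block. These counts come from the same line contrast that chose the block.

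A further 9 members, or 12.7%, passed the line rule at 1 time alone, against 6.15% outside the block. At 0 h alone BGIOSGA010233 was higher in DC90, and BGIOSGA010241, BGIOSGA010258 and BGIOSGA010260 were lower. BGIOSGA010258 was the best measured of these, at 15.4 in DC90 and 55.5 in 9311 at 0 h, a 3.61-fold difference with an interval of 2.96 to 4.43, and at 5.63 and 10.4 at 36 h. At 36 h alone BGIOSGA010293, BGIOSGA010304 and BGIOSGA010314 were higher in DC90, and BGIOSGA010237 and BGIOSGA010303 were lower. BGIOSGA010293 stood at 7.93 in DC90 and 1.56 in 9311 at 36 h, 5.08-fold apart (interval 3.65 to 7.23), but at 2.70 and 2.08 at 0 h. The ratio of BGIOSGA010304 was 2.50, with an interval of 0.986 to 7.14 that includes equality. BGIOSGA010237 was at 28.6 in DC90 and 68.9 in 9311 at 36 h, a 2.40-fold difference with an interval of 2.11 to 2.74, and at 53.6 and 87.4 at 0 h. Higher at one time and lower at the other were 0 members, against 0.149% outside the block, and 50 passed the line rule at neither time.

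**Figure D2:**
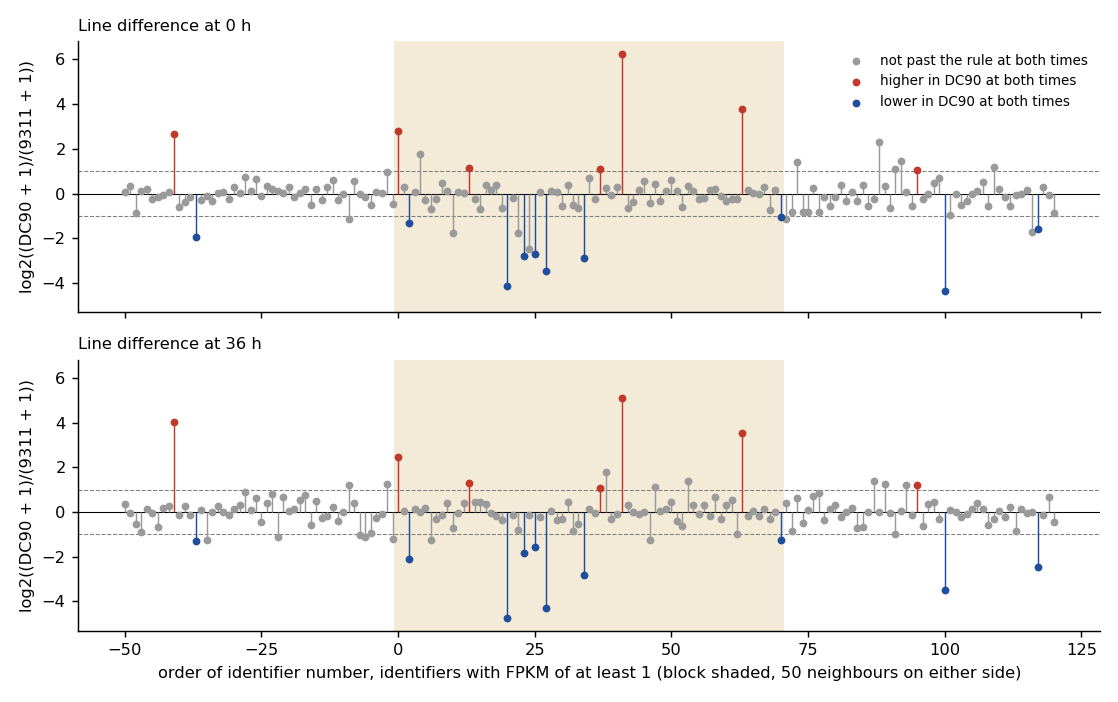
Line difference, as log2((DC90 FPKM + 1)/(9311 FPKM + 1)), at 0 h (upper panel) and 36 h (lower panel) for identifiers that reached an FPKM of 1, in order of number, with the block shaded and 50 neighbours on either side. Each stem is 1 identifier, dashed lines mark the 2-fold rule, and red and blue stems mark identifiers higher or lower in DC90 at both times; 12 of the 71 in the block are coloured, 2 of 50 before it and 3 of 50 after it.

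Members higher and members lower in DC90 were interspersed along the numbers, and no 2 of the 12 were neighbours in the order of members. The 5 higher ones ran from BGIOSGA010224 to BGIOSGA010343 and the 7 lower ones from BGIOSGA010227 to BGIOSGA010354. Cutting the order into 3 parts, the first 24 members, up to BGIOSGA010259, held 5 of the 12, the next 24, up to BGIOSGA010304, held 5, and the last 23 held 2. Short runs leaned one way, as was seen only after the values were known. Of the 8 members from BGIOSGA010256 to BGIOSGA010267, 6 were lower in DC90 at 0 h and 4 at both times, and none was higher. Of the 6 members from BGIOSGA010291 to BGIOSGA010297, 2 were higher at 0 h and 3 at 36 h, and none was lower.

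On either side of the block, the nearest identifiers did not differ at both times, which follows from how its bounds were set. Of the 10 members just inside the low end, 1 was higher and 1 lower in DC90 at both times, and the same held at the high end. Of the 20 identifiers just outside either end, from BGIOSGA010185 to BGIOSGA010217 and from BGIOSGA010355 to BGIOSGA010387, 0 differed at both times. At 36 h, 2 of the 10 identifiers just outside the low end were higher and 3 lower in DC90, against 1 and 2 just inside. Just outside the high end the counts at 36 h were 0 and 0, against 1 and 1 just inside. At 0 h they were 1 and 1 on both sides of the high end. At the low end they were 0 and 1 outside at 0 h, against 2 and 1 inside. Of the 50 identifiers outside the high end, 6 were higher and 4 lower at 0 h, and 4 and 2 at 36 h. Of the 50 outside the low end, 1 was higher and 2 lower at 0 h, and 3 and 6 at 36 h. Line differences at 1 time were thus seen past both bounds. Over all identifiers outside the block the shares were 1.57% and 1.83% at 0 h and 1.79% and 3.58% at 36 h. At the low end, BGIOSGA010216 with at most 1.37 FPKM and BGIOSGA010217 with at most 1.31 lay just outside, and BGIOSGA010224, described above, and BGIOSGA010225 just inside. At 36 h alone BGIOSGA010216 was higher and BGIOSGA010217 lower in DC90, on at most 4 and 3 reads per library. BGIOSGA010225 had 6.27 and 3.77 in DC90 and 4.91 and 3.57 in 9311. At the high end, BGIOSGA010349 had 7.45 and 7.64 in DC90 and 6.53 and 7.66 in 9311. Outside it, BGIOSGA010355 had 10.3 and 15.2 in DC90 and 23.6 and 11 in 9311, so that it was lower in DC90 at 0 h alone, and BGIOSGA010357 had 6.76 and 21.6 in DC90 and 12.7 and 40.3 in 9311. At the FPKM threshold, BGIOSGA010292 and BGIOSGA010280 were just above it, with highest values of 1.25 and 1.40, and BGIOSGA010351 and BGIOSGA010337 just below it, with 0.985 and 0.907.

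The line ratios of the members were spread more widely than those of identifiers outside the block. These ratios chose the block, so nothing further is read from their spread. The lower and upper quartiles of the log2 line ratio were -0.51 and 0.29 for members at 0 h, against -0.20 and 0.20 outside the block, and -0.34 and 0.38 at 36 h, against -0.18 and 0.28. The medians were 0.04 at 0 h and -0.03 at 36 h, against 0.01 and 0.07. For the 29 members that reached an FPKM of 5 in each library, the SD of the log2 line ratio was 0.46 at 0 h and 0.49 at 36 h, against 0.30 and 0.36 for 14156 identifiers outside it. None of the 12 members that passed the line rule at both times met this level in all libraries.

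**Figure D3:**
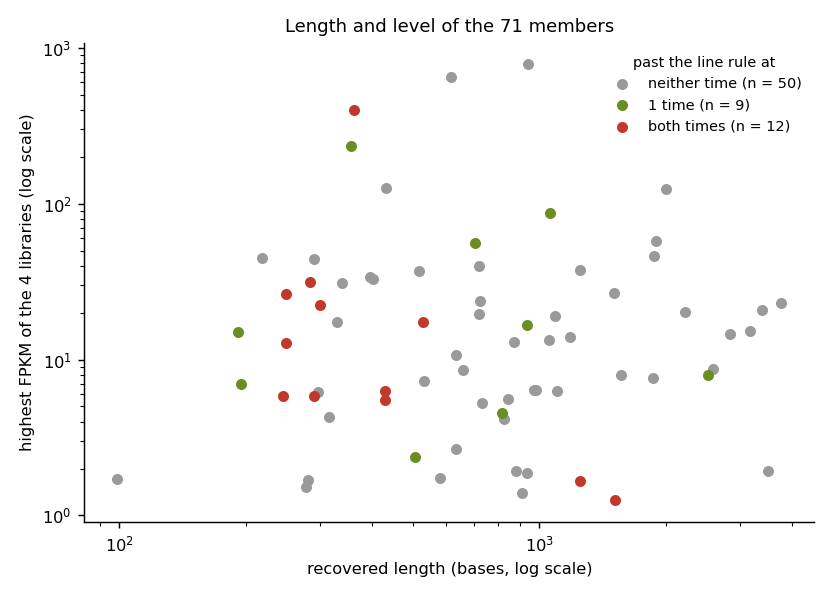
Recovered length in bases against the highest FPKM of the 4 libraries, both on log scales, for the 71 members, coloured by whether they passed the line rule at both times, at 1 time or at neither. The 12 that passed at both times have a median length of 331.5 bases, and the 50 that passed at neither have 858.

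The members with a lasting line difference mostly had short recovered lengths. The median recovered length of the 12 was 331.5 bases, against 705 for the 9 members that passed at 1 time and 858 for the 50 that passed at neither. A recovered length is the smallest that gives whole reads in every library, so it can be too short. This is likelier where fewer libraries have reads, as in several of the 12, and its part was not tested. Under 450 bases, a limit set after the values were seen, lay 9 of the 12, or 75%, and 12 of the 50, or 24.0%. The same lean was present outside the block, where 39.2% of the 217 identifiers past the rule at both times and 14.3% of those past it at neither were under 450 bases. Length enters the rule, because 1 is added to an FPKM that is itself divided by length. BGIOSGA010224, with 291 bases, and BGIOSGA010292, with 1512, both had 20 reads in DC90 and 0 in 9311 at 0 h, but their log2 line ratios were 2.78 and 1.09. The deepest library held a median of 34.5 reads for the 12 and 138.5 for the 50, and the part of length and depth in this lean was not tested. Levels differed less, with a median highest FPKM of 9.51 for the 12 and 13.7 for the 50.

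Members were on the whole modestly expressed. Their median FPKM was 6.65 in DC90 and 7.39 in 9311 at 0 h, and 6.05 and 7.66 at 36 h, against medians of 11.7 to 12.1 in the 4 libraries outside the block. In 32 of 71 members, or 45.1%, no library reached an FPKM of 10, against 35.8% outside the block. An FPKM of 100 was reached by 6 members, or 8.45%, against 11.9% outside the block. The share of listed identifiers that reached 1 FPKM was 54.2% in the block and 59.4% outside it. A few members made up most of the signal: the 5 highest in each library held 62.8% to 72.4% of the members' summed FPKM.

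Of the 5 most abundant members, BGIOSGA010297 passed the line rule at both times, BGIOSGA010314 at 36 h and the other 3 at neither time. BGIOSGA010291 had FPKM values of 656 and 580.1 in DC90 and 780.3 and 589 in 9311. BGIOSGA010295 had 646 and 428 in DC90 and 526 and 450.2 in 9311. BGIOSGA010347 had 126 and 90.4 in DC90 and 101 and 82.8 in 9311. In these 3, the lines were within 2-fold of each other at both times, and every log2 response was below 0, from -0.59 to -0.18. BGIOSGA010314, the fourth most abundant, had 233 and 100.3 in DC90 and 187 and 37.5 in 9311, and was lower after chilling in both lines. Its larger reduction in 9311 left DC90 2.67-fold higher at 36 h, with an interval of 2.20 to 3.26.

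Between 0 h and 36 h, a smaller share of members than of identifiers outside the block passed the 2-fold rule in both lines, a difference that was not tested. In DC90, 6 of the 62 members measured were higher and 8 lower at 36 h, together 22.6%, against 29.8% outside the block (14.5% higher and 15.3% lower). In 9311, 5 of 64 were higher and 10 lower, together 23.4%, against 34.3% (16.1% higher and 18.2% lower). The median log2 response was -0.19 in DC90 and -0.28 in 9311, against 0.01 and -0.06 outside the block. Members had lower FPKM than other identifiers, and adding 1 to each value shrinks the ratios of low values; the part of this in the smaller share was not tested. For the 29 members at 5 FPKM or more in all libraries, the SD of the log2 response was 0.57 in DC90 and 0.82 in 9311, against 0.94 and 1.03 outside the block.

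**Figure D4:**
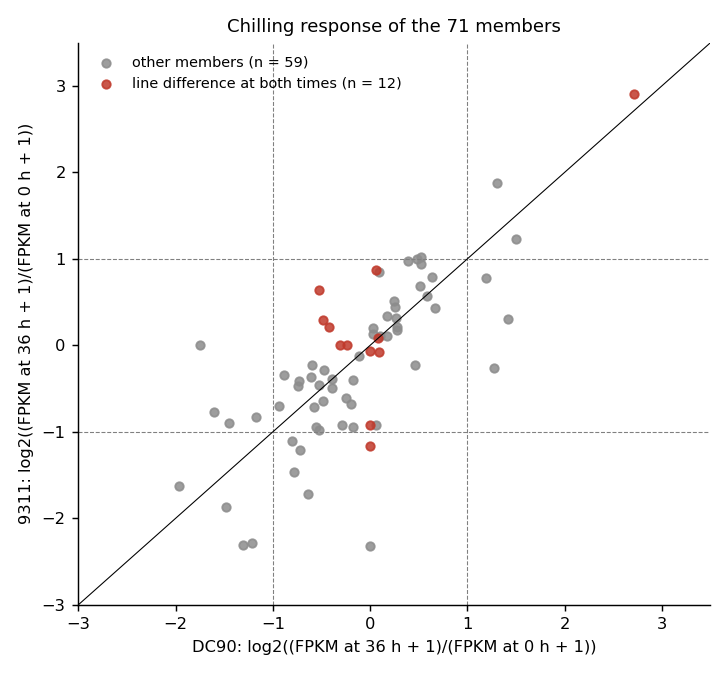
Chilling response of the 71 members, as log2((FPKM at 36 h + 1)/(FPKM at 0 h + 1)), in DC90 on the horizontal and 9311 on the vertical axis; dashed lines mark the 2-fold rule, the diagonal marks equal responses, and red points are the 12 members with a line difference at both times. 3 members are beyond the rule upward in both lines and 4 downward in both, and 0 are beyond it in opposite directions.

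Higher after chilling in both lines were 3 members, or 4.23%, against 10.4% outside the block, namely BGIOSGA010254, BGIOSGA010255 and BGIOSGA010354. BGIOSGA010254 went from 6.12 to 16.6 in DC90, 2.71-fold higher (interval 2.07 to 3.57), and from 4.44 to 19.0 in 9311, 4.29-fold higher (interval 3.20 to 5.84). Its neighbour in number BGIOSGA010255 went from 4.65 to 15 in DC90, a ratio of 3.24 (interval 2.23 to 4.78), and from 7.80 to 19.7 in 9311, a ratio of 2.53 (interval 1.88 to 3.42). These 2 adjacent models responded alike in direction, and neither passed the line rule at either time. BGIOSGA010354 had the largest response in both lines, with a ratio of 40.9 in DC90 (interval 6.91 to 1661, on 1 read at 0 h) and 12 in 9311 (interval 6.09 to 27.1).

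Lower after chilling in both lines were 4 members, or 5.63%, against 11.5% outside the block, namely BGIOSGA010258, BGIOSGA010306, BGIOSGA010314 and BGIOSGA010344. Opposite directions in the lines were shown by 0 members, against 0.0580% outside the block. BGIOSGA010344 went from 20.9 to 4.63 in DC90, 4.52-fold lower with an interval of 3.82 to 5.37, and from 18.8 to 5.44 in 9311, 3.47-fold lower with an interval of 2.96 to 4.07. BGIOSGA010306 went from 15.7 to 5.0 in DC90, 3.14-fold lower (interval 2.55 to 3.89), and from 20.1 to 4.77 in 9311, 4.20-fold lower (interval 3.43 to 5.19). Both were well covered, with at least 116 reads in each library, and their lines stood within 2-fold at both times. BGIOSGA010258 was 2.73-fold lower in DC90 (interval 1.91 to 3.97) and 5.33-fold lower in 9311 (interval 4.20 to 6.85), and BGIOSGA010314 was 2.33-fold (interval 2.06 to 2.63) and 4.99-fold lower (interval 4.17 to 5.99).

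Other members passed the response rule in a single line, which does not show that the lines differ. In DC90 alone, BGIOSGA010248, BGIOSGA010293 and BGIOSGA010348 were higher, and BGIOSGA010233, BGIOSGA010302, BGIOSGA010303 and BGIOSGA010318 lower. BGIOSGA010302 had 2 reads in DC90 at 0 h and 0 at 36 h, with an interval of 0 to 5.89 that includes equality. BGIOSGA010303 went from 11.9 to 3.24 in DC90, 3.67-fold lower with an interval of 2.48 to 5.59, and from 16.5 to 9.24 in 9311. In 9311 alone, BGIOSGA010290 and BGIOSGA010311 were higher, and BGIOSGA010240, BGIOSGA010241, BGIOSGA010260, BGIOSGA010263, BGIOSGA010304 and BGIOSGA010317 lower. BGIOSGA010290 and BGIOSGA010311 were just past the rule, with log2 responses of 1.0 and 1.02. BGIOSGA010260 and BGIOSGA010263 had no reads in DC90 in which a response could be seen. Across the 29 members at 5 FPKM or more in all libraries, the responses of both lines were correlated with a Pearson's r of 0.87 (Spearman's rho 0.86), a description across genes that share their libraries, against 0.89 and 0.88 for the 14156 identifiers outside the block.

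Of the 12 members with a line difference at both times, 1 was higher in DC90 after chilling among the 7 measured there, and in 9311 1 was higher and 1 lower among 8 measured. BGIOSGA010354 was the higher one in either line and BGIOSGA010263 the lower one. The remaining 10 passed the response rule in neither line. Among them, only BGIOSGA010227 and BGIOSGA010297 reached an FPKM of 1 in both lines. The others were too low to be measured in 1 of the lines, so their count does not show a lack of response there. Of the other 59 members, 5 were higher and 8 lower in DC90 among 55 measured, and 4 and 9 in 9311 among 56. Outside the block, 29.8% passed the rule in DC90 and 34.3% in 9311, and no difference between these groups was tested.

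The difference of the responses, DC90 minus 9311, was at least 1 on the log2 scale upward for 7 members and downward for 2 among 71, together 12.7%, against 8.24% outside the block (3.73% upward and 4.51% downward). It is the change of the line ratio between the times, so it shares its values with the contrast that chose the block. The largest upward value was 2.32 for BGIOSGA010260, which had reads in 9311 alone. Of the upward members with reads in both lines, BGIOSGA010293 had the largest difference, 1.54: it went from 2.70 to 7.93 in DC90, 2.93-fold higher (interval 2.26 to 3.84), and from 2.08 to 1.56 in 9311. BGIOSGA010258 at 1.0 and BGIOSGA010314 at 1.08 were lower after chilling in both lines, by less in DC90. BGIOSGA010263 at 1.16, BGIOSGA010241 at 1.08 and BGIOSGA010248 at 1.12 rested on 28 reads or fewer per library. The downward members were BGIOSGA010233 at -1.75 and BGIOSGA010297 at -1.16, the latter with less in DC90 and more in 9311 at 36 h than at 0 h, each by less than 2-fold on the log2(FPKM + 1) scale.

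**Figure D5:**
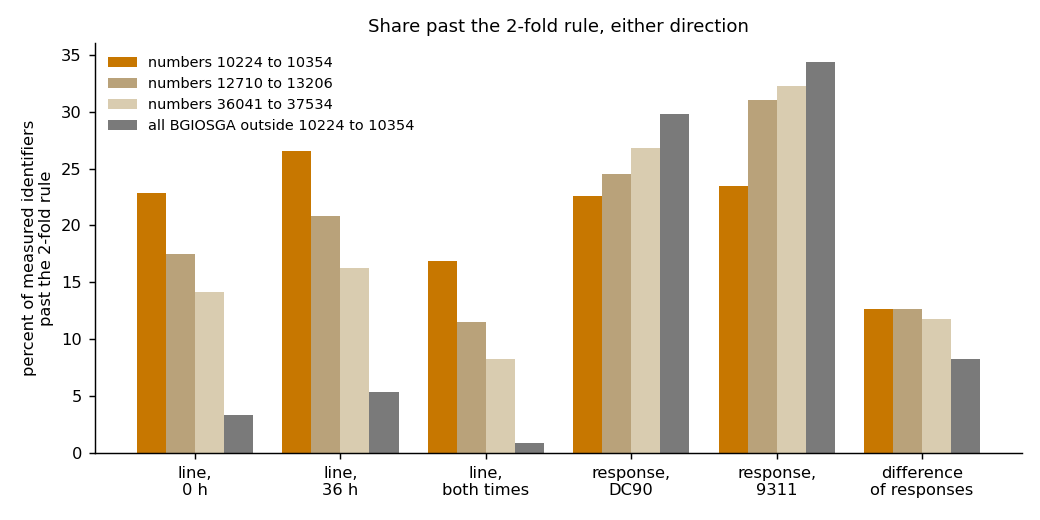
Percent of measured identifiers past the 2-fold rule in either direction (vertical axis, from 0) for 6 comparisons, in the block, in BGIOSGA012710 to BGIOSGA013206 and BGIOSGA036041 to BGIOSGA037534, and in all BGIOSGA identifiers outside the block. For the line difference at both times the bars stand at 16.9%, 11.5%, 8.26% and 0.900%.

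Line differences also gather in 2 other stretches of identifier numbers. In BGIOSGA012710 to BGIOSGA013206, 31 of 269 identifiers passed the line rule at both times, 13 higher and 18 lower in DC90, and in BGIOSGA036041 to BGIOSGA037534, 72 of 872 did, 30 higher and 42 lower. The share was 16.9% in the block described here, against 11.5% and 8.26%. These stretches were set by the same measure and hold more identifiers, 269 and 872 against 71, so the order of the shares is not read. Identifiers lower in DC90 outnumbered those higher in all 3 under the 2-fold rule, as they did outside the block, where 125 were lower and 92 higher. The identifiers outside the block include those of the other 2 stretches. Under a 4-fold rule the block held 3 of each. The share past the response rule was 24.5% and 26.8% in DC90 and 31.0% and 32.2% in 9311 for the other 2 stretches, below the shares outside the block there too.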

How the data were processed

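RNA of whole plants from 3 replicates per line and time was mixed in equal amounts before library preparation with a NEBNext Ultra kit, per the labels' protocols. The authors deposited 1 table of FPKM values for 88509 identifiers; the submitters' processing notes name HTSeq 0.6.1, while aligner, build and annotation are not stated there or in the labels. Titles tied columns to samples. Whole library totals, lengths up to 30000 bases and reads were recovered from the steps of the FPKM values for 34043 of 34043 identifiers above 0, within a tolerance of 1e-07. Where a factor common to reads and length was lost, the reads are too few and the length is too short. Recovery and calling were tested on simulated data. Groups have 1 library each, so no count model was fitted. Ratios have no pseudocount and exact Clopper-Pearson 95% intervals, and a library at 0 was set at 3 reads for a bound. Log2 ratios use FPKM + 1.

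The members, lists and rules were chosen with earlier results of these data known. Named were members past the line rule at both times, the extremes of each comparison, the 5 most abundant, those at the edges and thresholds and those at 0 in a line; others named in counts were chosen after their values were seen. Alternatives were a pseudocount of 0.1 without a filter, FPKM of at least 5, a 4-fold rule, at least 20 reads, median-of-ratios factors and equal FPKM sums. Python 3.11.15 with pandas 2.3.3, numpy 2.4.6 and scipy 1.17.1 was used.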

Additional observations from a re-analysis of the deposited data

How the results depend on the processing

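With 1 pooled library per group, no replicate could be left out. No paired analysis was possible because each group has 1 library and the labels give no replicate numbers. Median-of-ratios factors and equal FPKM sums left all member counts within 1.5 times, and 116 of 116 log2 ratios of named members on the same side of the rule. Equal FPKM sums moved the median log2 response of well-measured identifiers in DC90 by 0.10. A pseudocount of 0.1 without a filter moved 7 of 116 across it; the members lower at 36 h than at 0 h then numbered 13 in DC90 and 18 in 9311, those lower in DC90 at 36 h 14, and those with a downward difference of responses 6, where the shares outside the block were 19.4%, 22.6%, 6.29% and 7.40%. Under a 4-fold rule, line differences were 3 higher and 6 lower at 0 h (outside the block 0.254% and 0.302%). At 36 h they were 3 and 4 (0.288% and 0.528%), and at both times 3 and 3. The same rule left 1 member higher and 0 lower after chilling in DC90 (outside the block 3.29% and 3.51%), 1 and 3 in 9311 (4.54% and 4.22%), and 1 upward and 0 downward difference of responses (0.216% and 0.547%). With FPKM of at least 5, members higher in DC90 numbered 3 at 0 h (outside the block 1.38%), 5 at 36 h (1.32%) and 2 at both times. Those lower at both times then numbered 4, and downward differences of responses 1 (4.24%). With at least 20 reads, those lower at both times numbered 4 and downward differences of responses 1. The shares outside the block under this read setting are not given here, so these counts are not read as an excess. Fewer identifiers can pass each of the last 3 settings by construction. Outside the block, 0.153% were higher and 0.178% lower at both times under the 4-fold rule, and 0.278% and 0.347% with FPKM of at least 5. Depth was low for some members: 10 of the 71 stayed under 20 reads in every library, against 2169 of 24121 identifiers outside the block. Of the 10, 1 was among the 12 members past the line rule at both times. Of the 10 or 20 identifiers next to the block on either side, 0 differed between lines at both times, and of the 50 next to it, 2 did at the low end and 3 at the high end.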

Other observations

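Of the 60 identifiers in the range that did not reach an FPKM of 1, 23 had reads, at most 11 in any library. These reads lay in 9311 alone for 8, in DC90 alone for 5 and in both lines for 10. At this depth, reads in a single line are not read as a line difference.

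Summed over the 71 members, FPKM was 2844 in DC90 and 2504 in 9311 at 0 h, and 2271 and 2078 at 36 h. Without BGIOSGA010297, the member with the widest line difference, the sums were 2447 and 2499.8 at 0 h, and 1996 and 2071 at 36 h. The higher sum in DC90 at either time was therefore not present once this single short model was left out, a choice made after its values were seen. Over the other 11 members with a line difference at both times, the sums were 28.8 in DC90 and 76.5 in 9311 at 0 h, and 29.8 and 108 at 36 h.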
